A study of Drosophila melanogaster with 9 samples.

Results

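CP190 was mapped by ChIP-seq in whole Drosophila melanogaster embryos of the Pita ΔCP1+2 line and of the Pita wt line, and all CP190 peaks of both lines are compared here, including those where no FLAG-tagged Pita was called. Each line carried a transgene on the third chromosome that expressed Pita fused with FLAG from the Ubi-p63E promoter, which is active in most tissues. In Pita ΔCP1+2 the protein lacked both regions that bind the BTB domain of CP190, and in Pita wt it was complete. The strain of all samples is given as Oregon-R. The labels do not say whether these embryos also had endogenous Pita. The study reports crossing the transgenes into a pita mutant background with no detectable endogenous pita mRNA. It does not state the background of the ChIP-seq embryos. The sample labels give 12 h of development and the study's methods 8 to 16 h. The 4 CP190 samples, 2 replicates of each line, are part of 9 samples, of which 1 preimmune sample, taken from Pita wt only, was the control for both lines. The replicates of a line are merged in 1 deposited peak list, so no difference below could be set against a spread between replicates, and no test was made. The study's supplement gives each list a self-consistency ratio, a measure of replicate reproducibility. That of the Pita wt CP190 list was above the limit named in the methods, and that of Pita ΔCP1+2 was below it. The same held for the FLAG lists of Pita wt and Pita ΔCP1+2, whose calls are used below.

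The list of Pita ΔCP1+2 held 8429 CP190 peaks and that of Pita wt 6586, together 15015 of the 29281 peaks in the 4 lists of the series. A window of 250 bp on each side of every summit was compared with the windows of the other line, and windows that overlapped by 1 bp or more were shared. A Pita ΔCP1+2 peak with no such overlap is called gained, a Pita wt peak with none is called lost, and the others are called kept. The strength of a peak is its rank by the fold enrichment over the preimmune sample that the authors gave it, since fold enrichments of separate lists are not on one scale. Intervals are 95% Wilson intervals over peaks. They cover counting error only, because neighbouring peaks and peaks of one library are not independent. In whole embryos, fewer cells with CP190 at a site and less CP190 per cell cannot be told apart.

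CP190 is a protein with a BTB domain and zinc fingers that does not choose most of its sites itself. It is brought to DNA by architectural proteins such as Pita, CTCF and Su(Hw), and it is known from insulators, boundaries and the promoters of broadly expressed genes. Pita reads a long DNA motif through its zinc fingers and is known from promoters and from boundaries of the Bithorax complex, the cluster of homeotic genes that sets the identity of the abdominal segments.

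The strongest lost CP190 sites, and the kept ones whose rank fell most in Pita ΔCP1+2, carried matches to the Pita matrix of the study, which spans 21 bases, and examples are shown because the comparisons of strength turn on them. Each is printed with 4 flanking bases in lower case, and the capitals mark the best match within the window. All are read 5′ to 3′ on the strand given, from the dm6 assembly in RefSeq. The first 5 lie in Pita wt peaks that were lost in Pita ΔCP1+2, the next 3 are from the 5 kept peaks whose rank fell most, and the last lies in the strongest Pita wt peak.
MCU, chr3L:6550196-6550216, plus strand: gactAAACAGTCGAGACACGAACCTaaac
Lk6, chr3R:11764569-11764589, minus strand: aaatAAACAGCGAAGTTCTCAACCAtatg
PhKgamma, chrX:11694978-11694998, minus strand: cctaACTTAGCAAGGACTTGATCCCactc
Socs36E, chr2L:18152577-18152597, plus strand: tataCTCTAGCACGGGCTCCAACCCgtgg
cindr, chr3R:30808524-30808544, minus strand: ttggCGCGAGCGGAGACGGCAACCAcggt
cib, chrX:4105864-4105884, minus strand: attcATTTAGCAGAGACACGAACCAcatc
Tpst, chrX:13563667-13563687, minus strand: atgcATTTAGCCAAGACAGGAACCAgtcg
ATPsynC, chr3R:31219696-31219716, minus strand: aaatGTGTAGCCAGGACTTGCACCGtgga
Atg8a, chrX:10768415-10768435, minus strand: taacATTTAGCGAATACATGAACCAaatg

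Among the 14 named sites whose match was read out in this way, all 14 shared an A and a G at positions 5 and 6 of the match and a C at positions 19 and 20. A T stood before the AG in 11 of the 14. All these letters are the best bases of the matrix, by which the matches were chosen, so that sharing them follows largely from the scan. The match of cib had a p-value of 2.58e-10 and the best base of the matrix at 17 of its 21 positions. Those of Tpst (2.51e-08), Atg8a (7.49e-08) and ATPsynC (3.45e-07) came next among the sites printed, and that of Lk6 (1.33e-05) was the weakest. The match is a description of the letters in the window and does not show what was bound there.

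Of the Pita ΔCP1+2 peaks, 3483 of 8429 (41.3%, interval 40.3 to 42.4%) were gained, and of the Pita wt peaks, 1640 of 6586 (24.9%, interval 23.9 to 26.0%) were lost. The kept peaks numbered 4946 in each list and formed 4931 pairs in which each summit was the nearest to the other. The threshold divided few peaks. The nearest summit of the other line lay at 400 to 499 bp, just inside it, for 83 Pita ΔCP1+2 and 82 Pita wt peaks, and at 500 to 599 bp, just outside it, for 70 and 67. By the deposited boundaries, 182 gained peaks touched a Pita wt peak and 237 lost peaks touched a Pita ΔCP1+2 peak.

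Most CP190 peaks of both lists lay in coding exons of GC-rich DNA, not at gene starts. The summit was in a coding exon for 83.5% of the Pita ΔCP1+2 peaks and 78.2% of the Pita wt peaks, while 16.7% of all 500 bp windows of the chromosome arms have their centre in one. A gene start lay within 500 bp for 17.5% of the Pita ΔCP1+2 and 20.9% of the Pita wt peaks, against 13.3% of all windows. The median GC content was 56.6% in both lists, against 41.8% over all windows. CP190 is otherwise known from promoters and insulators, and whether the base composition of the libraries had a part in these peaks was not tested.

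Gained and lost peaks differed in strength. The gained share was low among strong peaks and increased towards the weak end of the Pita ΔCP1+2 list. It was 5.70% in the strongest decile of the list and 73.8% in the weakest. The lost share had high values at both ends of the Pita wt list, with 29.8% in the strongest decile, 10.8% in the next decile and 36.4% in the weakest. In finer steps, the gained share of the Pita ΔCP1+2 list was 7% in peaks 1 to 100, 3% in peaks 101 to 200, 2% in peaks 201 to 300 and 3.50% in peaks 301 to 500. Most of the gained peaks among ranks 1 to 100 lay on scaffolds outside the chromosome arms. In the Pita wt list, 61.0% of peaks 1 to 100 and 68.0% of peaks 101 to 200 were lost, followed by 27.0% of peaks 201 to 300 and 13% of peaks 301 to 500.

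**Figure D1:**
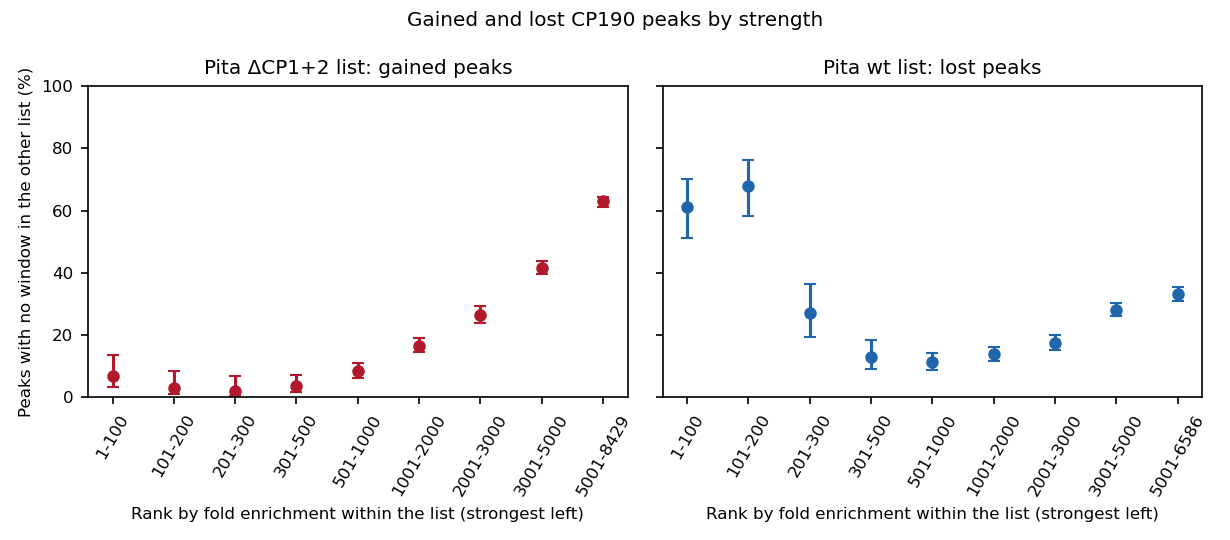
Share of CP190 peaks with no window in the other line, by rank of the fold enrichment within each list (left, gained peaks of Pita ΔCP1+2, right, lost peaks of Pita wt). Points are shares in percent and bars 95% Wilson intervals, and in the first 2 bins the gained share of Pita ΔCP1+2 is 7% and 3% while the lost share of Pita wt is 61.0% and 68.0%.

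The step at rank 200 was seen in these values, and the 200 strongest peaks were then looked at as a set. In Pita ΔCP1+2, 10 of the 200 (5.00%, interval 2.74 to 8.96%) were gained, and in Pita wt, 129 of the 200 (64.5%, interval 57.7 to 70.8%) were lost. The upper ends of the lists were also built differently. The median fold enrichment was 2.07 in Pita ΔCP1+2 and in Pita wt, and the 90th percentile was 2.63 and 2.65. The 99th percentile was 3.40 in Pita ΔCP1+2 and 6.58 in Pita wt, and a value of 5 or more was given to 10 peaks of Pita ΔCP1+2 and 94 of Pita wt. These are the authors' values over the same preimmune sample. They are not on one scale, and whether the libraries differed in enrichment was not tested. The read depth behind these values was not analysed here.

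The 200 strongest peaks lay at different kinds of sites in the 2 lines. A gene start was within 500 bp of 18% of those in Pita ΔCP1+2 and 61.0% of those in Pita wt. The summit was in a coding exon in 82.5% and 14.0%, and the median GC content was 61.4% and 41.1%. A match to the Pita matrix at a p-value of 1e-04 was present in 10.0% of the 200 in Pita ΔCP1+2 and 69.0% in Pita wt, and one at 1e-06 in 1.50% and 33.0%. A match at 1e-04 is found in 5.76% of all windows of the arms and in 7.32% of windows at the starts of protein-coding genes.

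The 8 strongest lost sites all lay between genes and all had a match to the Pita matrix. A gene start was within 500 bp of 7 of the 8. FLAG was called at 7 of the 8 in Pita ΔCP1+2, all but the site at CG6073, and at all 8 in Pita wt. The strongest, of rank 7 with a fold enrichment of 19 in Pita wt, was at chr3L:6549699-6551093, 462 bp from the start of MCU (FBgn0042185), which encodes the pore of the mitochondrial calcium uniporter. The nearest Pita ΔCP1+2 CP190 summit was 21503 bp away. Peaks lost close to the starts of kinase genes were of rank 16 (fold 13.6, chr3R:11764129-11764840) at Lk6, whose product phosphorylates the translation factor eIF4E, and of rank 17 (fold 13.5, chrX:11694787-11695605) at PhKgamma, the catalytic subunit of phosphorylase kinase. Signalling adaptors and regulators were also among them. These were Lnk, an adaptor of insulin signalling (rank 14, fold 14.4, chr3R:25887911-25889137), Socs36E, a suppressor of JAK/STAT signalling (rank 19, fold 13.1, chr2L:18152087-18152778), and cindr, an adaptor that links membrane proteins to the actin cytoskeleton (rank 22, fold 12.4, chr3R:30808328-30809019). The other sites were next to CG6465 (rank 13, fold 14.4) and CG6073 (rank 24, fold 11.9).

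Kept peaks also had different ranks, which count from 1 to 8429 in Pita ΔCP1+2 and from 1 to 6586 in Pita wt. At ATPsynC (FBgn0039830), which encodes subunit c of the mitochondrial ATP synthase, the CP190 peak was of rank 5339 with a fold enrichment of 1.97 in Pita ΔCP1+2, against rank 9 with 17.6 in Pita wt. Its summits were 1 bp apart, and it was 234 bp wide in Pita ΔCP1+2 and 847 bp in Pita wt. At cib, an actin-binding protein, it was of rank 662 (fold 2.70, 353 bp wide) in Pita ΔCP1+2 and rank 4 (fold 27.6, 2216 bp wide) in Pita wt. The peak at Vha55, subunit B of the vacuolar proton pump, was of rank 3379 (fold 2.15) and rank 23 (fold 12.3). That at Tpst, a tyrosylprotein sulfotransferase, was of rank 5243 (fold 1.98) and rank 52 (fold 8.30). The fifth, in an intron of the calcium channel gene Ca-alpha1T, was of rank 8140 (fold 1.65) in Pita ΔCP1+2 and rank 75 (fold 5.85) in Pita wt, with summits 452 bp apart. All 5 had a match at 1e-05 and a FLAG peak in both lines. Since ranks were used to choose these sites, the differences are a description.

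The 5 kept peaks whose rank improved most in Pita ΔCP1+2 had no match at 1e-04. They were in coding exons of CG5504 (rank 21 in Pita ΔCP1+2 and 2920 in Pita wt), CG43795 (84 and 3777) and vg, a selector gene of wing development (32 and 1220), in an intron of Myo81F (124 and 5538), and in an intergenic stretch of 2L whose nearest gene is ACXC (146 and 6460). Their GC content was 50.2 to 65.8%, against 43.4 to 48.4% at the 5 sites whose rank fell most.

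Some of the strongest sites stayed at the top of both lists. The peak next to snoRNA:Psi28S-3342 was of rank 1 (fold 12.8) in Pita ΔCP1+2 and rank 2 (fold 30.3) in Pita wt, and its window held no match at 1e-04. The peak at Atg8a, a ubiquitin-like protein of autophagy, was of rank 9 (fold 5.10) in Pita ΔCP1+2 and rank 1 (fold 49.4) in Pita wt, with its summit at the same base. At TER94, an AAA ATPase with a match at 1e-05, the ranks were 4 (fold 6.55) in Pita ΔCP1+2 and 5 (fold 23.3) in Pita wt. In an intron of bun, a transcription factor gene, they were 12 (fold 4.82) and 12 (fold 14.6). In an intron of Tet they were 10 (fold 5.03) and 15 (fold 13.9). The Tet and bun windows held no match at 1e-04 either. All 5 sites thus had a lower fold enrichment in Pita ΔCP1+2, with or without a match. Of the kept pairs, 39 were among the 200 strongest of both lists. The 190 pairs that were among the 200 strongest of Pita ΔCP1+2 had a median rank of 331.5 in Pita wt, and the 71 pairs that were among the 200 strongest of Pita wt had a median rank of 165 in Pita ΔCP1+2.

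**Figure D2:**
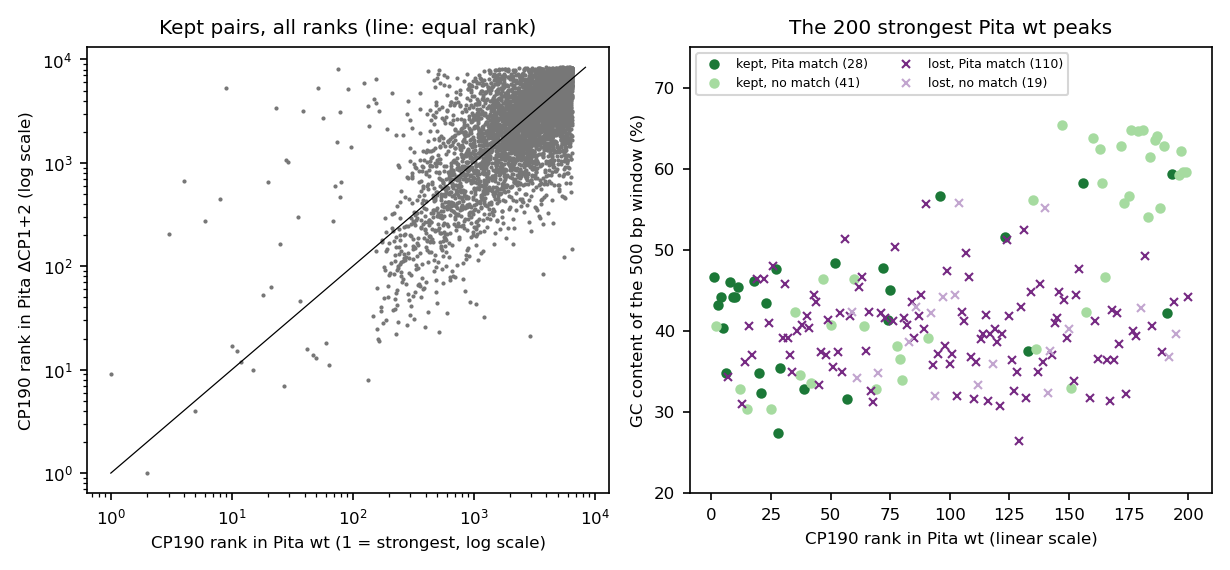
Left, rank of each of the 4931 kept pairs in Pita ΔCP1+2 (y axis) and Pita wt (x axis), both on log scales, with the line of equal rank. Right, GC content in percent of the 200 strongest Pita wt windows by rank, without 2 kept peaks on scaffolds, where crosses are lost and circles kept peaks and dark symbols have a Pita match at 1e-04. Among them are 110 lost and 28 kept peaks with a match.

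Among the 200 strongest Pita wt peaks, 110 of the 138 with a Pita match (79.7%, interval 72.2 to 85.6%) and 19 of the 60 without one on the chromosome arms (31.7%, interval 21.3 to 44.2%) were lost. The 28 kept peaks with a match were strong, with a median fold enrichment of 11 in Pita wt, against 4.68 for the 110 lost ones. FLAG was called at 21 of the 28 in Pita ΔCP1+2 and at all 28 in Pita wt. Of the 110 lost peaks with a match, 40 had a FLAG peak in Pita ΔCP1+2 and 85 in Pita wt. The word of CTCF (AGNTGGCGC, either strand) was present in 10 of the 129 lost and 19 of the 71 kept peaks of this set, and 3 of 15 peaks with that word and no Pita match were lost. It is present in 1.48% of all windows.

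Genes of cytosolic ribosomal proteins were a group with strong lost peaks. Of 92 such genes, 10 had a Pita ΔCP1+2 peak and 23 a Pita wt peak within 500 bp of their start. Among these, 7 had a peak in both lines, 3 in Pita ΔCP1+2 only and 16 in Pita wt only. None of the 10 peaks in Pita ΔCP1+2 was among the 200 strongest of its list, while 10 of the 23 in Pita wt were. All 10 strong Pita wt peaks were lost, and all 10 had a Pita match. Among all 200 strongest Pita wt peaks, 98 of the 122 within 500 bp of a gene start (80.3%) were lost, and no difference of the group from these was tested. FLAG was called at 3 of the 10 in Pita ΔCP1+2 and at 9 in Pita wt. Examples are RpL30 (rank 82, fold 5.63), RpL23 (100, 4.77), RpL22 (107, 4.63) and RpS14a (109, 4.62). The start nearest to the last of these peaks was that of Dhdds, 44 bp from the summit. Counts in this group are of genes, so that 1 peak near the starts of several is counted for each. Of the 13 weaker Pita wt peaks of the group, 2 had a match and 4 were lost. Of the 23 Pita wt peaks 14 were thus lost, while at RpL24-like and RpS13 the Pita wt peak was kept although no Pita ΔCP1+2 summit was within 500 bp of the start. The peaks at RpS26 (rank 293 in Pita ΔCP1+2 and 343 in Pita wt) and RpS5b (366 and 628) were kept and had no match.

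Over all 13968 protein-coding genes, 1416 had a Pita ΔCP1+2 peak and 1338 a Pita wt peak within 500 bp of a start, and 817 had one in both lines. By the same count, which includes such kept peaks, a peak in Pita wt only stood at 38.9% of the genes with a Pita wt peak, against 16 of 23 among cytosolic ribosomal protein genes. In the other lists the counts were small and lay on both sides. Mitochondrial ribosomal protein genes had 7 with a Pita ΔCP1+2 peak and 4 with a Pita wt peak of 73, and proteasome subunits had 7 and 5 of 48. The peak at mRpL13 was kept but was of rank 3156 (fold 2.17) in Pita ΔCP1+2 and rank 39 (fold 9.33) in Pita wt. Replication genes had 2 and 1 of 14, segmentation genes 3 and 4 of 19, and insulator and architectural protein genes 1 and 2 of 16. The gene pita itself was counted as having none, but a lost Pita wt peak (rank 104, fold 4.67) lay in its intron, 511 bp from the start and just past the limit, with FLAG called in Pita wt and not in Pita ΔCP1+2. It was named after its value was seen. Of the 8 homeotic genes, Abd-B had a peak at its start in both lines (rank 3164 in Pita ΔCP1+2 and 606 in Pita wt), and lab and pb had one in Pita wt only. Ubi-p63E, whose promoter drives the transgenes, had a weak kept peak of rank 5911 in Pita ΔCP1+2 and 5674 in Pita wt.

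Between Ubx and Abd-B, the span of the Bithorax complex (chr3R:16656623-16972236), where Pita is known to act at boundaries, 12 CP190 peaks were called in Pita ΔCP1+2 and 13 in Pita wt. Of these 2 of 12 were gained and 4 of 13 were lost, against 41.3% and 24.9% over all peaks. The strongest lost peak there, of rank 33 with a fold enrichment of 10.0 in Pita wt, was in an intron of Abd-B (chr3R:16969447-16970371) and had a Pita match, with FLAG called in Pita wt but not in Pita ΔCP1+2. An intergenic peak near lncRNA:CR45750, also with a match, was kept but was of rank 1027 (fold 2.56) in Pita ΔCP1+2 and rank 29 (fold 10.8) in Pita wt. The 3 peaks in coding exons of Abd-B were kept, with ranks of 213, 245 and 4506 in Pita ΔCP1+2, against 1137, 277 and 3455 in Pita wt. Kept peaks in coding exons of abd-A were of rank 359, 3333 and 8271 in Pita ΔCP1+2, against 808 and 2233 in Pita wt. A kept peak in a coding exon of Ubx was of rank 3532 in Pita ΔCP1+2 and 3941 in Pita wt. The lists differ in length, and some of these ranks differed at nearly equal fold enrichments. Ranks 4506 and 3455 at Abd-B had folds of 2.04 and 2.05, and ranks 3333 and 2233 at abd-A 2.15 and 2.21. Ranks 213 and 1137 at Abd-B had folds of 3.11 and 2.44, and ranks 359 and 808 at abd-A 2.91 and 2.57.

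Across all strengths, the lost share increased with the Pita match, and the gained share was lower with one. The gained share of Pita ΔCP1+2 peaks was 41.8% without a match and 36.4% (293 of 806) with a match at 1e-04. It was 25.8% (24 of 93, interval 18.0 to 35.5%) at 1e-05 and 17.4% (4 of 23, interval 6.98 to 37.1%) at 1e-06. These 2 intervals are wide and overlap. With and without a match at 1e-04, the gained share was 41.1% and 39.1% at gene starts, but 36.2% and 39.9% in coding exons. The lost share of Pita wt peaks was 22.4% without a match, 40.2% (364 of 905) at 1e-04, 70.0% (184 of 263) at 1e-05 and 79.9% (107 of 134) at 1e-06. Outside the 200 strongest Pita wt peaks, 56 of 68 peaks (82.4%) with a match at 1e-06 and 33.1% of those with one at 1e-04 were lost, against 22.3% without a match.

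The shares also moved with base composition. Windows of under 40% GC were gained in 3 of 21 Pita ΔCP1+2 peaks (14.3%) and lost in 157 of 179 Pita wt peaks (87.7%). The gained share was 52.2% at 40 to 45% GC, 59.6% at 45 to 50%, 53.6% at 50 to 55%, 41.7% at 55 to 60% and 20.0% at 60% or more, so that it was highest in the middle. The lost share was 81.5%, 54.7%, 32.4%, 17.9% and 6.58% in the same bins. Within windows of under 50% GC, the lost share was 82.5% with a match at 1e-04 (227 of 275) and 59.4% without (314 of 529). Within windows of 50% GC or more it was 21.7% with a match and 18.6% without, and 6 of 14 with a match at 1e-06 were lost. GC content, place and the Pita match thus moved together, and their separate parts in the difference between the lines were not tested beyond these strata.

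**Figure D3:**
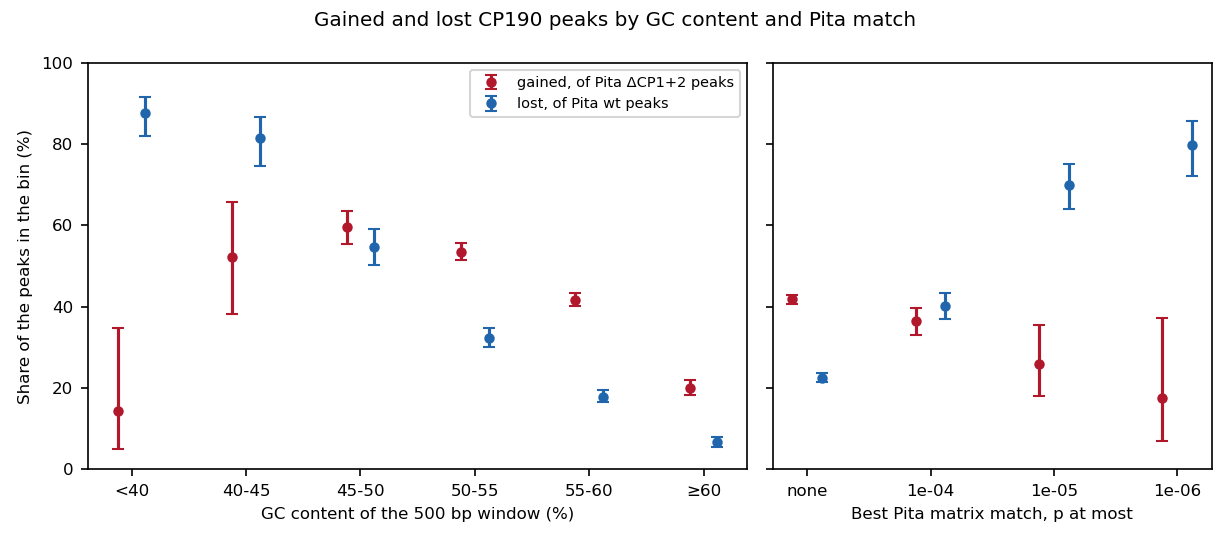
Share of gained peaks of Pita ΔCP1+2 (red) and of lost peaks of Pita wt (blue), in percent, by GC content of the 500 bp window (left) and by the best match to the Pita matrix (right, where the p-value bins are cumulative). Bars are 95% Wilson intervals, and the lost share falls with GC content to 6.58% at 60% or more and reaches 79.9% with a match at 1e-06.

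In coding exons, 39.6% of Pita ΔCP1+2 peaks were gained and 17.8% of Pita wt peaks were lost, while outside them the shares were 50.2% and 50.5%. At gene starts, 39.3% were gained and 35.4% lost. The words of other promoter and insulator proteins are read against the overall shares of 41.3% gained and 24.9% lost. The word of DRE (TATCGATA) was in 32 Pita ΔCP1+2 peaks, of which 13 were gained, and in 56 Pita wt peaks, of which 38 were lost. That of M1BP (GGTCACACT), a promoter factor, was in 39 peaks with 10 gained and in 63 with 35 lost. Among peaks without a Pita match at 1e-04, 15 of 30 Pita wt peaks with the DRE word and 15 of 35 with the M1BP word were lost. DRE is found in 1.41% and M1BP in 0.513% of all windows. The word of CTCF was in 376 Pita ΔCP1+2 peaks, of which 31.9% were gained, and in 335 Pita wt peaks, of which 24.5% were lost. That of Su(Hw) (TGCATANTT), found in 5.18% of all windows, was in 110 and 105 peaks, of which 39.1% were gained and 42.9% lost.

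A FLAG peak of the same line overlapped 39.1% of the gained and 81.9% of the kept Pita ΔCP1+2 peaks, and 37.9% of the lost and 78.2% of the kept Pita wt peaks. No FLAG peak of either line was present at 48.5% of gained and 48.6% of lost peaks, against 9.24% and 9.26% of kept ones. Where FLAG was called in both lines, 16.1% of the Pita ΔCP1+2 CP190 peaks were gained and 8.02% of the Pita wt CP190 peaks were lost. Where it was called in neither, 78.7% were gained and 63.5% lost. All 4 lists were called over the same preimmune sample, which enters each of these overlaps.

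The strongest gained peaks were not on the chromosome arms. Those of rank 2 (fold 11.1), 3 (fold 10.5), 5 (fold 5.46) and 6 (fold 5.44) in Pita ΔCP1+2 lay on unplaced scaffolds assigned to the Y chromosome, and that of rank 24 (fold 3.95) on an unassigned scaffold. All 5 had a FLAG peak in Pita ΔCP1+2 and none in Pita wt. Those of rank 5 and 6 shared a scaffold, with a Pita wt CP190 summit 834 and 10127 bp away. The Pita wt summit 834 bp away lay inside the deposited interval of the rank 5 peak. The scaffolds of the others held no Pita wt CP190 summit. Unplaced scaffolds hold much repeated sequence, and their copy number in the 2 lines was not tested. The next were in coding exons of Rcd-1, a subunit of the CCR4-NOT complex (rank 72, fold 3.44, chrX:19639120-19640471), of CG11438 (rank 89, fold 3.39), and of dy, a ZP-domain protein of wing cells (rank 102, fold 3.35). On the arms, further strong gained peaks were in coding exons of CG6340 (rank 119), raskol, a Ras GTPase-activating protein (166), the transcription factors grh (297) and bi (341), and dlg1, a scaffold of cell junctions (369). These 8 on the arms were chosen after the scaffolds were seen. Several were close to Pita wt peaks. A Pita wt summit was 514 bp from that of CG11438, 631 bp from CG6340, 639 bp from raskol, 652 bp from bi and 1261 bp from Rcd-1, and the deposited intervals at Rcd-1 and raskol lay inside those of lost Pita wt peaks of rank 134 and 70. At dy, grh and dlg1 the nearest Pita wt summit was 6744 to 38731 bp away. All 8 were in coding exons, 1 had a Pita match, and their GC content was 48.8 to 63.2%.

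Gained and lost peaks were spread over the large chromosome arms in much the same shares. The gained share was 42.1% on X, 43.4% on 2L, 40.4% on 2R, 41.4% on 3L and 40.0% on 3R. The lost share was 25.8%, 24.9%, 22.4%, 24.7% and 26.0% on the same arms. On chromosome 4, 2 of 5 Pita ΔCP1+2 peaks were gained and 9 of 12 Pita wt peaks were lost, and the density was 3.71 peaks per Mb in Pita ΔCP1+2 and 8.90 in Pita wt, against 57.4 to 68.9 and 44.8 to 52.8 on the large arms. On scaffolds 12 of 25 peaks were gained and 5 of 18 lost.

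**Figure D4:**
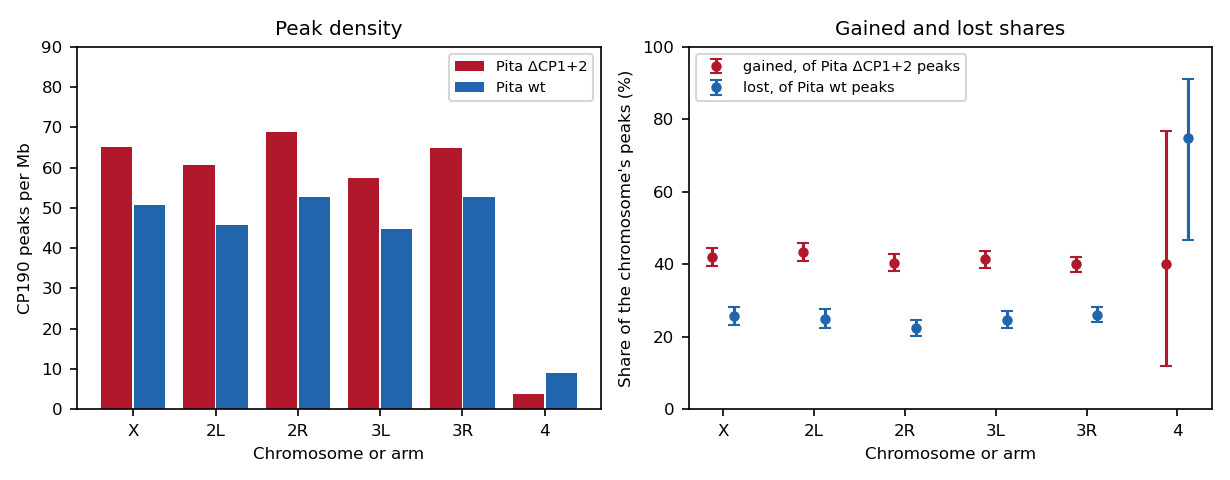
Left, CP190 peaks per Mb on each chromosome or arm in Pita ΔCP1+2 (red) and Pita wt (blue). Right, share of gained and of lost peaks in percent with 95% Wilson intervals, which lie between 40.0% and 43.4% and between 22.4% and 26.0% on the 5 large arms, while chromosome 4 holds only 5 and 12 peaks.

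Chromosome X held 18.2% of the peaks in each list but more of the strong ones. Its share was 30.5% of the 200 strongest Pita ΔCP1+2 peaks and 29.0% of the 200 strongest Pita wt peaks, and 12.0% and 11.1% of the peaks past rank 5000. The gained share on X was above that elsewhere in part of the strength range. Among the 1000 strongest peaks of Pita ΔCP1+2 it was 9.89% on X (interval 6.89 to 14.0%) and 4.68% elsewhere (3.37 to 6.46%). In ranks past 1000 and up to 3000 of Pita ΔCP1+2 it was 30.7% on X (interval 26.5 to 35.1%) and 19.1% elsewhere (17.2 to 21.1%), and in ranks past 3000 and up to 5000 it was 52.2% (47.4 to 57.0%) and 38.9% (36.6 to 41.4%). Among the 200 strongest alone, and past rank 5000, the intervals overlapped. The lost share of Pita wt in ranks past 3000 and up to 5000 was 34.3% on X (29.5 to 39.5%) and 26.9% elsewhere (24.8 to 29.1%), and the intervals overlapped in the other rank ranges. The sex of the embryos was not given, and its part was not tested.

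Gained and lost peaks were narrower than kept ones. The median width was 465 bp for gained and 605 bp for kept Pita ΔCP1+2 peaks, and 438 bp for lost and 573 bp for kept Pita wt peaks. A width of at most 300 bp was found in 19.8% of gained and 8.31% of kept Pita ΔCP1+2 peaks and in 23.2% of lost and 9.97% of kept Pita wt peaks. Width was largest among strong peaks but did not fall steadily with strength. Its median was 704 bp in the strongest decile of Pita ΔCP1+2, 474 bp in decile 8 and 551 bp in the weakest, against 676.5 bp in the strongest decile of Pita wt, 479 bp in decile 6 and 542 bp in the weakest. Of the kept pairs, 3132 (63.5%) were wider in Pita ΔCP1+2, 1769 were narrower and 30 were equal, and the median difference was 18 bp.

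The distance to the next summit of the same list had a median of 3262 bp for gained and 3097 bp for kept Pita ΔCP1+2 peaks, and of 4270 bp for lost and 3993 bp for kept Pita wt peaks, in a shorter list. The next summit was within 1000 bp for 13.7% of gained and 11% of kept Pita ΔCP1+2 peaks, and for 13.3% of lost and 8.94% of kept Pita wt peaks. The nearest neighbour was itself gained for 43.5% of the gained and 40.4% of the kept Pita ΔCP1+2 peaks, and itself lost for 29.1% of the lost and 23.6% of the kept Pita wt peaks. Gained peaks lay at a median of 4406 bp from the nearest Pita wt summit, and lost peaks at 3394 bp from the nearest Pita ΔCP1+2 summit.

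Most kept summits were close together. The median distance between the paired summits was 27 bp (quartiles 11 and 57 bp). Between the summits of the 2 peak sets held within a list it was 38 bp, in Pita ΔCP1+2 and in Pita wt. Distances within a list had no limit and reached 3830 and 3212 bp, while pairing held those between the lines to 499 bp. Which peak sets a list holds is not known here, so that the 38 bp are not a replicate error. The distance between the lines was at most 50 bp in 71.2% and at most 100 bp in 87.3% of the pairs, and over 250 bp in 215 pairs (4.36%). In the 27 pairs with a Pita match at 1e-06 the median was 21 bp but the upper quartile 309 bp. Summits shifted to higher coordinates in Pita ΔCP1+2 in 2383 pairs and to lower ones in 2429. When the pairs were split by width into 3 equal sets, the median shift was 21 bp in the narrow, 31 bp in the middle and 34 bp in the wide set. The largest shifts, close to the limit set by the window, were in coding exons of modSP, a serine protease of the Toll pathway (495 bp), Tango4 (495 bp) and luna, a zinc-finger transcription factor (494 bp), in peaks whose boundaries nearly coincided.

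**Figure D5:**
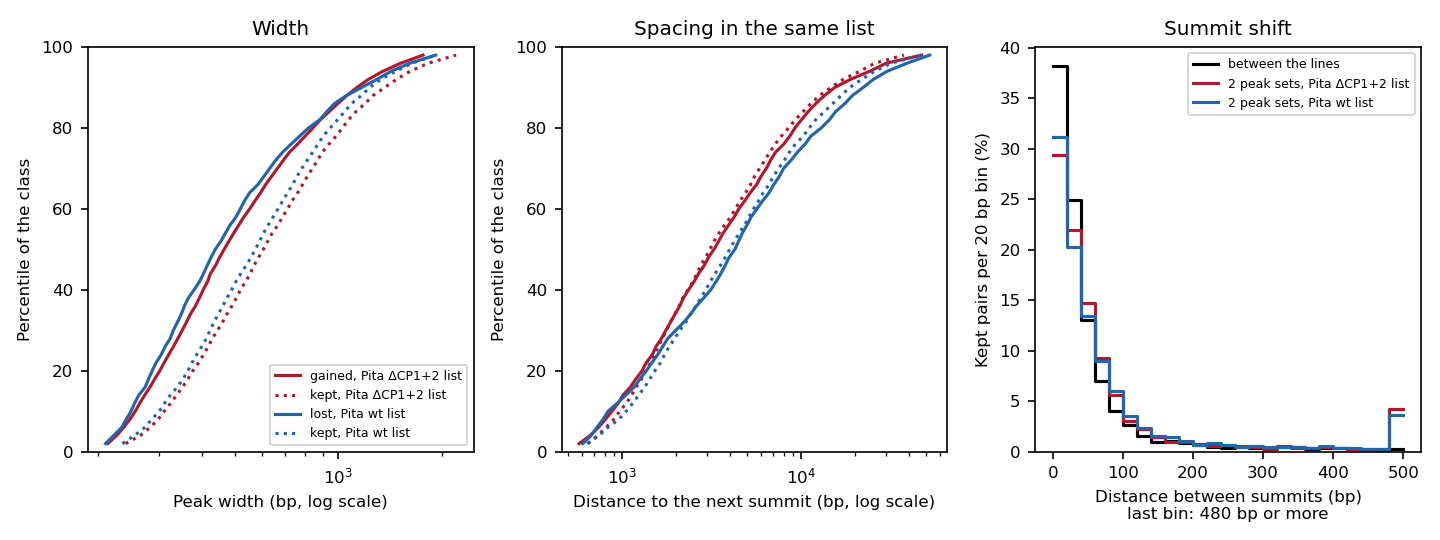
Cumulative percentiles of peak width (left, bp, log scale) and of distance to the next summit in the same list (middle, bp, log scale) for gained and kept Pita ΔCP1+2 peaks (red) and lost and kept Pita wt peaks (blue), and the distance between summits of kept pairs (right, percent of pairs per 20 bp). Gained and lost peaks are narrower than kept ones (465 and 438 bp against 605 and 573 bp), and the shift between the lines has a median of 27 bp.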

How the data were processed

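CP190 and FLAG ChIP-seq peak lists of Pita ΔCP1+2 and Pita wt embryos were analysed. According to the methods, the authors trimmed reads with cutadapt, aligned them to dm6 with Bowtie version 2, removed duplicates with Picard, discarded blacklisted regions and called peaks with MACS2 at a p-value of 0.01 over the preimmune sample. The lists hold the optimal set that the IDR pipeline gave at 0.05. The sample notes also name dm3, which the methods give as the source of the blacklist only, and the scaffold names in the lists belong to dm6. The labels describe single-end and the methods paired-end sequencing, and 0 to 12 h or 12 h of collection in the labels stands against 8 to 16 h in the methods. Each deposited peak has a position, a summit offset, a fold enrichment (a ratio over the preimmune sample) and a −log10 p-value made by the authors. The other columns were not used, except positions in the peak sets that IDR compared.

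Read depth per sample was not analysed here. Windows were half-open, so that summits up to 499 bp apart overlap. Peaks were ranked by fold enrichment, ties by −log10 p. Gene starts, exons and introns came from Ensembl release 115 for this assembly, and GC content and motifs were computed for the 8404 and 6568 peaks of Pita ΔCP1+2 and Pita wt on the chromosome arms. The Pita matrix of the study's supplement (21 positions) was scanned on both strands at p-values of 1e-04, 1e-05 and 1e-06, and the other words by their letters on both strands. The word of BEAF-32 (CGATA), contained in that of DRE, and of the GAGA factor (GAGAGAG) were also searched. They were in 43.0% gained and 28.5% lost, and 44.2% gained and 34.8% lost, of their peaks. Genome background is 273845 windows of 500 bp.

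Named sites are the 8 strongest gained and lost peaks, the 5 kept pairs with the largest fall and the 5 with the largest rise in log rank, the 5 strongest kept pairs and the 3 with the largest summit shift. They are named by the nearest gene start or by the gene that holds the summit. Genes of 8 lists were counted at their starts, and 14 of 17 replication and 19 of 20 segmentation genes were found by symbol. Members, lists and rules were chosen with earlier results of these data known, and the 200 strongest peaks, the GC strata, the Bithorax region and the strongest gained peaks on the arms after their values were seen. On simulated lists, 700 of 700 gained, 1000 of 1000 kept and 300 of 300 lost peaks and 200 of 200 planted motif words were recovered. The simulated sites were at least 5000 bp apart and kept summits were shifted only within the limit of overlap. This checks the code and not crowded sites. In the data 64.0% of Pita ΔCP1+2 and 57.0% of Pita wt summits had another of their list within 5000 bp. Python 3.11.15, numpy 2.4.6, pandas 2.3.3, scipy 1.17.1 and matplotlib 3.10.9 were used. Alternatives changed the window, the overlap, the boundaries, the peaks that enter, the rank measure, the gene start distance and the matrix threshold. Some items are not reported here.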

Additional observations from a re-analysis of the deposited data

How the results depend on the processing

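No paired analysis was possible because the replicates of each line are merged in 1 list, and for the same reason no replicate could be left out. Of 116 values under alternatives for 24 results, 53 stayed within the interval of the main value (counts of sites, within 1.5 times it) and 63 did not, and the cause was not tested where the alternative itself does not set it. The gained and lost shares, 41.3% and 24.9%, were 39.3% and 21.4% with deposited boundaries, 44.8% and 29.4% with windows of 100 bp on each side, 36.7% and 20.3% with 500 bp, and 44.1% and 28.4% with an overlap of at least 250 bp. They were 35.9% and 35.8% among the 5000 strongest peaks of each list and 39.4% and 39.4% among the 3000 strongest. With the Pita ΔCP1+2 list shortened to the length of the Pita wt list they were 33.7% and 33.5%. Almost every kept peak has a single partner, so lists of equal length must give nearly equal gained and lost shares. These 3 settings therefore cannot show why the full lists differ in length. The lost share was 26.3% with a −log10 p of at least 5, and 44.5% in the weakest decile of Pita wt ranked by −log10 p.

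With deposited boundaries, median widths of gained and lost peaks were 451 and 410 bp, lost spacing 4568 bp and the X share of lost peaks 16.7%. With an overlap of 250 bp, widths were 487 and 481.5 bp and 27.4% of lost peaks were at gene starts. Among the 5000 strongest, widths were 513 and 466 bp, spacings 6018 and 5867 bp, the shift 24 bp, the X share of gained peaks 24.6%, gained peaks at gene starts 15.1%, and FLAG shares 59.8% and 50.4%. With the shortened list, widths were 451 and 470 bp, gained spacing 4671 bp, X shares 23.1% and 16.3%, FLAG shares 46.3% and 42.1%, and lost peaks at gene starts 26.3% and with a Pita match 19%. With a −log10 p of at least 5, widths were 542.5 and 506.5 bp, spacings 4997 and 6796 bp, the shift 25 bp, the X share of gained peaks 20.6%, FLAG shares 60.7% and 53.6%, and lost peaks at gene starts 32.6% and with a match 26.2%. Within 250 bp of a gene start lay 5.56% of gained and 18.7% of lost peaks, and within 1000 bp 36.1% and 45.3%. Matches at 1e-05 were in 0.691% and 11.3%, and at 1e-06 in 0.115% and 6.54%.

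In settings chosen after seeing the data, the lost share of the 200 strongest Pita wt peaks was 56.5% with windows of 500 bp. That of peaks with a Pita match was 36.6% with deposited boundaries and 33.1% without the 200 strongest. Of the 8 strongest gained sites 5 stayed gained with deposited boundaries and 6 with windows of 500 bp, while all 8 strongest lost sites stayed lost under the 5 settings tried.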
